A study of Mus musculus with 11 samples.

Results

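H3K4me3, trimethylated lysine 4 of histone H3, was compared at day 2 between embryoid bodies that lacked Wdr5 (KO) and embryoid bodies that lacked Wdr5 together with p53 (DKO). All peaks of both deposited H3K4me3 lists on chromosomes 1 to 19, X and Y were used, which gave 918 peaks in KO and 6418 in DKO of 19707 peaks in the 11 lists of the series. They were sorted by overlap of at least 1 base into peaks called in both lists, in KO without DKO and in DKO without KO. The study profiled WDR5, P53 and H3K4me3 by CUT&RUN, in which a nuclease tethered to an antibody releases the DNA around the antibody's target for sequencing. All libraries came from mouse embryonic stem cells carrying an Rx:GFP knock-in, a reporter of an early eye field gene, grown as aggregates by the SFEBq method in GMEM with 5% KSR. In every genotype doxycycline was taken away at day 0 and 2% matrigel was given at day 1. Each reaction took 2 µg of antibody. The genotypes were wild type (WT), KO and DKO, and each had 1 H3K4me3 library. What doxycycline controlled, which parts of Wdr5 and p53 were deleted, and whether each line was a single clone were not given in the labels or headers.

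H3K4me3 marks the start of active genes, just downstream of the start site, and is richest where the DNA holds many CpG dinucleotides. It is laid down by the MLL and SET1 methyltransferase complexes, in which WDR5 joins ASH2L, RBBP5 and DPY30 as a shared core. p53 is a transcription factor that is held at a low level by MDM2 and that, when stabilised, activates genes of cell cycle arrest, DNA repair and apoptosis.

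The KO library held 22.3 M fragments, the WT library 34.2 M and the DKO library 43.2 M, so DKO had 1.94 times the fragments of KO and 6.99 times its peaks. Fold enrichment, the authors' ratio of summit pileup to the background around it within that library, could pass the q cutoff at a lowest value of 3.62 in KO and 2.98 in DKO where the background was at the library's floor. The shortest peak was 261 bases in KO and 202 in DKO, and 963 of the 5720 DKO peaks without a KO peak (16.8%) were shorter than any KO peak. The part of depth and fragment length in the counts was not tested. With 1 library per genotype, no difference between KO and DKO has a replicate check, no test was made, and intervals cover counting error only. H3K4me3 at the starts of Wdr5 and Trp53, called in all 3 genotypes, checks nothing about the deletions. Of 38 anterior neural and eye field genes, markers of the labelled tissue, 12 had an H3K4me3 peak at an end in WT, 1 in KO and 3 in DKO, where 35.5%, 3.2% and 22.8% of all protein-coding genes did. Of 32 pluripotency genes 21 were marked in WT, while 1 of 38 mesoderm and endoderm genes and 3 of 21 fibroblast feeder markers were marked in WT and none of either in KO or DKO. Of 25 extraembryonic and trophoblast markers, 7 were marked in WT, none in KO and 2, Lamc1 and Krt18, in DKO (8%). The DKO share of the anterior neural and eye field list was 7.89%.

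Before the peaks themselves, the promoters that the gene results turn on are shown, as the 250 bases before the start site (RefSeq, GRCm38.p6, read 5′ to 3′ along the gene). The first 3 belong to p53 target genes whose KO peak overlapped no DKO peak. Aen and Gadd45a are p53 target genes called in DKO and not in KO. Psmc6 had the highest gene-end peak called in both lists after Lars2, by the lower of its folds, and Trmt10c the highest DKO peak without a KO peak at a gene end outside chromosome 8. Capitals mark GC boxes, GGGCGG or CCGCCC, and matches to the p53 half-site consensus, searched on both strands.
Apaf1: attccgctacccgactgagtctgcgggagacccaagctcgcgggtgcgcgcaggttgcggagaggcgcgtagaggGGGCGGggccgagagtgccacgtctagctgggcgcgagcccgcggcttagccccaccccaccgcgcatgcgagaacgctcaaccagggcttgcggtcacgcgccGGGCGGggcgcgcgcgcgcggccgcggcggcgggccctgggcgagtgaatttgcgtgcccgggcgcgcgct
Phlda3: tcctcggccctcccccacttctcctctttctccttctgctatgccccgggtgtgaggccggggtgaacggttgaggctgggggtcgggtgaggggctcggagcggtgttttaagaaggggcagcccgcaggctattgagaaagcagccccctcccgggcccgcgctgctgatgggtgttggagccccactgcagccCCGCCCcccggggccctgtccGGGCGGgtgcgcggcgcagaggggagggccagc
Mdm2: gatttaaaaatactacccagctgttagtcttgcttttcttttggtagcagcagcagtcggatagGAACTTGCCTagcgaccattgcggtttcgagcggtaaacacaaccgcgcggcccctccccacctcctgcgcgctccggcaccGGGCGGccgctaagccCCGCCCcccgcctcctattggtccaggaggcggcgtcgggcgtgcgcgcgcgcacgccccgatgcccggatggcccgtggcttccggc
Aen: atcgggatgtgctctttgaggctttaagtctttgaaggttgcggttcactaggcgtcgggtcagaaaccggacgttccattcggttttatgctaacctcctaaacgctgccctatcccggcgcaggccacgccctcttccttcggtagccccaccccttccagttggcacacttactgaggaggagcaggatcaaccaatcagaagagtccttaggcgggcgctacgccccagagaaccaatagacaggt
Gadd45a: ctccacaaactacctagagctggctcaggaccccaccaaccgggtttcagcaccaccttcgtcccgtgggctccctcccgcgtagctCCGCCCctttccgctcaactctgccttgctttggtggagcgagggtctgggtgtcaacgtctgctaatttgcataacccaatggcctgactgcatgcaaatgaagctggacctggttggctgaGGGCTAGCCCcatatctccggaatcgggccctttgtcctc
Psmc6: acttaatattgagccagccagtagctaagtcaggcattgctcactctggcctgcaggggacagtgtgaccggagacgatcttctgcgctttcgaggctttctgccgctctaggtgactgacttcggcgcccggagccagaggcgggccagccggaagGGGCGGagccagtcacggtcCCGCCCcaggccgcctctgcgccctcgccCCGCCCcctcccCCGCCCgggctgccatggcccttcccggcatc
Trmt10c: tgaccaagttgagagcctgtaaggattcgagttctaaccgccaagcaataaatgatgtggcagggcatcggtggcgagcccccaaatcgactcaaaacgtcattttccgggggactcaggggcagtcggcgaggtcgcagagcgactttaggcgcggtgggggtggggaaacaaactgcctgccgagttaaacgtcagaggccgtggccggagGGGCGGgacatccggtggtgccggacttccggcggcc
Their positions are chr10:91082744-91082993 (Apaf1, minus strand), chr1:135765835-135766084 (Phlda3, plus), chr10:117710759-117711008 (Mdm2, minus), chr7:78895677-78895926 (Aen, plus), chr6:67037408-67037657 (Gadd45a, minus), chr14:45329574-45329823 (Psmc6, plus) and chr16:56037787-56038036 (Trmt10c, minus). Psmc6 held 4 GC boxes, Apaf1, Phlda3 and Mdm2 held 2 each, Gadd45a and Trmt10c held 1 each and Aen held 0. A p53 half-site match lay in the Mdm2 and Gadd45a windows. Over all 21263 start-site windows used here, each of 300 bases (250 before and 50 after the site), 46.2% held GGGCGG and 7.37% a p53 half-site match. A match is a run of letters and not a measured site.

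Most KO peaks were also DKO peaks, and few DKO peaks were KO peaks. Of 918 KO peaks, 694 overlapped a DKO peak (75.6%, Wilson 95% interval 72.7 to 78.3), and 698 of 6418 DKO peaks overlapped a KO peak (10.9%, 10.1 to 11.7). That left 224 KO peaks without a DKO peak and 5720 DKO peaks without a KO peak. Of the 224, 28 lay within 500 bases of a DKO peak (12.5%). The lists differ in length, and these shares moved with it: when only peaks with a fold of at least 4 were kept in both lists, a level above both floors, 60.6% of KO peaks and 16.1% of DKO peaks overlapped the other list. When the DKO list was cut to 918 peaks by fold, the shares were 31.0% and 30.7%.

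The classes lay in different places. Of the peaks called in both lists, 684 of 694 (98.6%) overlapped a WT H3K4me3 peak and 500 (72.0%) lay within 1 kb of an end of a protein-coding gene. Of the DKO peaks without KO, 4325 of 5720 (75.6%, 74.5 to 76.7) overlapped a WT peak and 4181 (73.1%) lay at a gene end. Of the KO peaks without DKO, 120 of 224 (53.6%) overlapped a WT peak, 71 (31.7%) lay at a gene end and 106 (47.3%) lay outside genes. With the DKO list cut to the KO length by fold, KO peaks without DKO lay on WT in 82.1% and at a gene end in 58.9%. Among the 104 of the full class that overlapped no WT peak, 5 lay at a gene end (4.81%) and 71 outside genes (68.3%). Local background was at the library floor in 142 of the 224 (63.4%), against 79 of the 694 peaks called in both (11.4%).

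**Figure D1:**
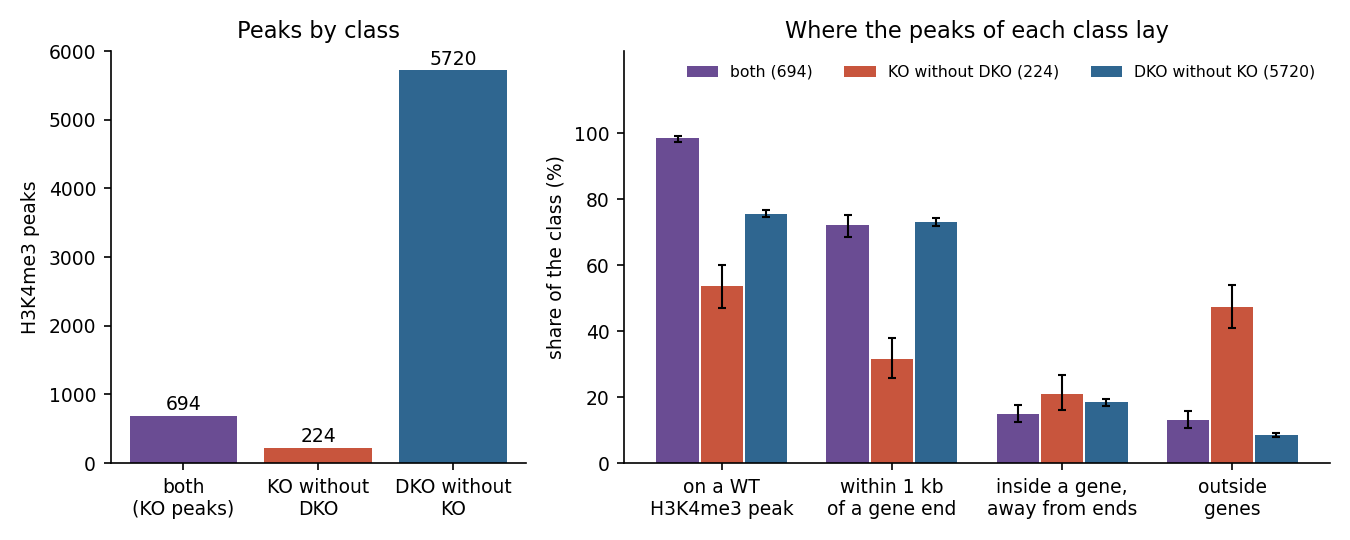
Left, number of H3K4me3 peaks in each class; right, share of each class (%) that overlapped a WT H3K4me3 peak or lay at, inside or outside protein-coding genes, with Wilson 95% intervals for counting error. KO peaks without a DKO peak lay outside genes in 47.3% and at gene ends in 31.7%, while the other classes lay at gene ends in over 70%; at equal list length 58.9% of KO peaks without DKO lay at gene ends.

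WT peaks of higher fold were called more often in either knockout. In the lowest 10% of the 9836 WT peaks by fold, 3.46% overlapped a KO peak and 25.1% a DKO peak, and in the highest 10% 24.5% and 84.8%. Altogether 795 WT peaks (8.08%) were called in KO and 4837 (49.2%) in DKO, and 699 of the 795 (87.9%) were also called in DKO. WT fold had a median of 5.56 at WT peaks called in both (n = 699), 4.81 at those called in DKO alone (n = 4138), 4.55 at those called in KO alone (n = 96) and 4.04 at those called in neither (n = 4903). WT peaks called in both were also the longest, with a median of 906 bases against 644, 416.5 and 400 in the other classes in the same order.

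**Figure D2:**
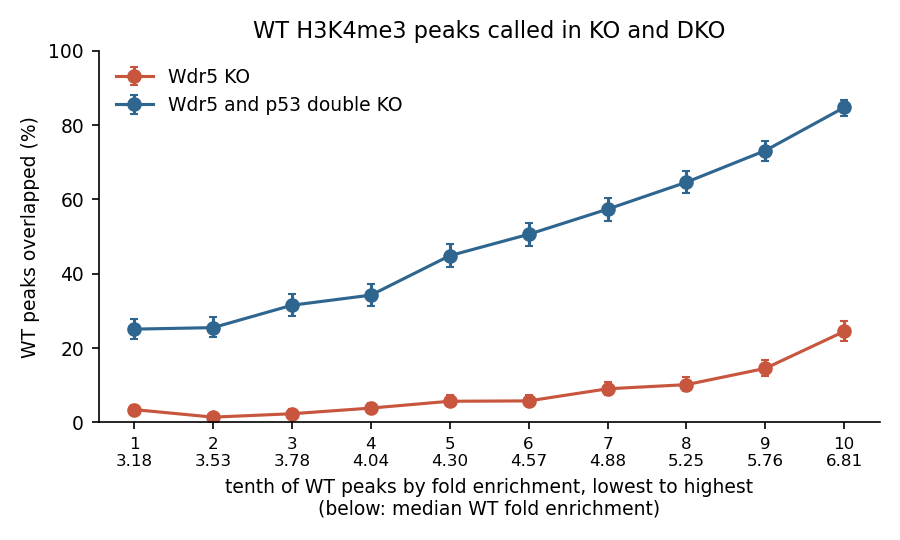
Share of WT H3K4me3 peaks (%) overlapped by a KO or DKO peak, in 10 equal groups by WT fold enrichment, with the median WT fold of each group under the axis and Wilson 95% intervals for counting error. The DKO share lay above the KO share in each group, from 25.1% against 3.46% to 84.8% against 24.5%.

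Where a peak was called in both lists, the fold enrichments were close. Such peaks had to pass the cutoff in both libraries, and their folds spanned a narrow range. The quartiles were 4.11 and 5.34 over the shared KO peaks and 4.01 and 5.43 over the shared DKO peaks. Folds drawn from ranges this alike can lie close without pairing, and the part of this in the values below was not tested. The median was 4.69 in KO and 4.67 in DKO over the 694 peaks, KO was the higher in 367 (52.9%), and 642 (92.5%) lay within 1.5 times of each other. Spearman's rho between the folds was 0.42 across these peaks, 0.35 at gene ends and 0.59 away from them, as a description of peaks from the same pair of libraries. Lengths differed more: DKO peaks were longer in 577 of 694 (83.1%), with medians of 731 and 405 bases. Summits lay a median of 120 bases apart.

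**Figure D3:**
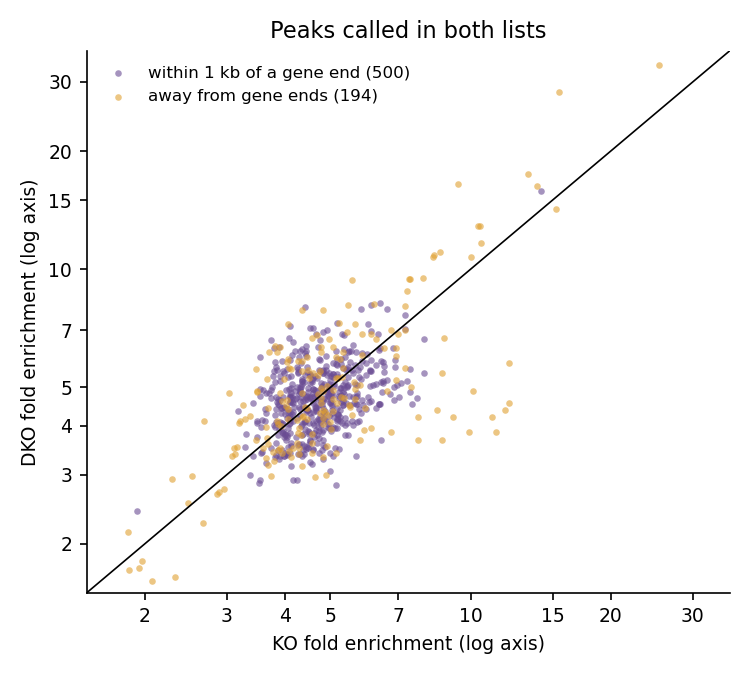
Fold enrichment in DKO against KO for the 694 KO peaks that overlapped a DKO peak, on log axes, coloured by place, with the line of equal fold. Peaks at gene ends gather around the line near a fold of 4.7, and the peaks with the largest excess in KO lie away from gene ends.

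The highest shared peaks at gene ends included housekeeping genes. Psmc6, a proteasome ATPase subunit, had folds of 9.74 (WT), 7.22 (KO) and 7.66 (DKO). Heatr1, a ribosome biogenesis factor, had 10.4, 7.95 and 6.63, and Wdr75, of the same pathway, had 7.51, 7.25 and 7.05. Vcp, an ATPase of protein quality control, had 8.35, 6.82 and 6.31, and Kif22, a mitotic kinesin, had 9.29, 6.36 and 6.23. In these 5 the WT fold was the highest, but at Ccnf, cyclin F, WT had 5.99, KO 6.32 and DKO 6.84. The gene-end peak with the highest fold in both, 14.2 in KO and 15.8 in DKO, lay in Lars2 514 bases from a gene end and was 18.1 in WT.

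The highest peaks of all were mostly not at genes and were called in WT too. A peak outside genes on chromosome 9, chr9:35305229-35305577, had folds of 29.9 (WT), 25.4 (KO) and 33.1 (DKO), and a peak at chr2:98666300-98667325 had pileups of 18301 fragments in KO and 21141 in DKO. Peaks with a fold of at least 8 numbered 37 in KO and 32 in DKO, and of these 36 and 26 lay away from gene ends. At gene ends, a fold of at least 6 was reached by 55 KO peaks (9.63% of 571), 98 DKO peaks (2.09% of 4690) and 988 WT peaks (13.1% of 7568). The similar numbers of high peaks in KO and DKO therefore came from regions away from gene ends.

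Some peaks away from gene ends were higher in KO than in DKO by raw pileup as well as by fold, although KO was the shallower library. The peaks below were picked by fold, and pileups are given for 2 of them. The floor of local background was 3.14 in KO and 4.71 in DKO. Where both libraries were at their floor, an equal pileup therefore gave a higher fold in KO. In 28 shared peaks (4.03%) the KO fold was at least 1.5 times the DKO fold, and 20 of these lay away from gene ends. The peak inside Aopep, chr13:63158552-63159055, had 48 fragments and a fold of 11.8 in KO, 24 fragments and 4.38 in DKO, and a fold of 7.15 in WT. The peak inside Cpa6, chr1:10423829-10424314, had 40 fragments and 9.90 in KO, 21 and 3.85 in DKO, and 4.37 in WT. The opposite excess, DKO at least 1.5 times KO, was seen in 24 peaks, 11 of them at gene ends, among them Prmt5, an arginine methyltransferase (4.42 in KO, 8.0 in DKO, 10.5 in WT), and Chek2, a DNA damage checkpoint kinase (4.11, 7.18 and 8.32). These peaks and the 1.5 times limit were chosen after their values were seen.

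The highest KO peaks without a DKO peak also lay away from gene ends. The first was inside Thsd7b, chr1:129397379-129397951, with a fold of 11.4 and 46 fragments in KO and a fold of 4.76 in WT, and it lay on a region called with the P53 antibody in both WT lists. Next came chr13:111502056-111502408, outside genes, with 10.4 in KO and 8.34 in WT, also on a WT P53 region, and chr5:27987068-27987382, outside genes, with 10.4 in KO and no WT peak. In total 9 of the 224 (4.02%) lay on a WT P53 region and 1 on a DKO P53 region, against 51 (7.35%) and 55 (7.93%) of the 694 KO peaks that DKO shared. Of the 5720 DKO peaks without KO, 12 (0.210%) lay on a WT P53 region and 15 (0.262%) on a DKO P53 region.

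Read from the side of the bound regions, 215 WT P53 regions had no P53 peak in DKO. H3K4me3 was called at 13 of them in WT, at 11 in KO (5.12%) and at 4 in DKO (1.86%): 3 in both knockouts, 8 in KO without DKO and 1 in DKO without KO. The 8 included the Thsd7b region, a region near Zmiz2 (6.27 in WT, 8.59 in KO) and a region far from any gene end, Otol1 being the nearest (5.96 in WT, 8.94 in KO). The KO peak nearest Otol1 also lay on a region called with the WDR5 antibody in both DKO lists, where Wdr5 is deleted by label. At the Thsd7b and Otol1 peaks the KO local background was at the library floor. At the 73 P53 regions still called in DKO, where p53 is deleted by label, H3K4me3 was called at 51 in KO and 60 in DKO. Of 312 WT WDR5 regions without a WDR5 peak in DKO, H3K4me3 was called at 124 in WT, 19 in KO (6.09%) and 75 in DKO (24.0%), and 58 of these were in DKO without KO. For comparison, 8.08% of all WT H3K4me3 peaks were called in KO, 49.2% in DKO and 42.1% in DKO without KO. Those are shares of WT peaks, while the shares of regions include regions without a WT H3K4me3 peak.

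At the level of genes, 701 of 21887 protein-coding genes had a peak within 1 kb of an end in KO (3.2%) and 4999 in DKO (22.8%). Both knockouts marked 658 genes (3.01%), KO alone 43 (0.196%) and DKO alone 4341 (19.8%). Among the 7762 genes marked in WT, 697 were marked in KO (8.98%) and 4638 in DKO (59.8%): 657 in both (8.46%), 40 in KO alone (0.515%), 3981 in DKO alone (51.3%) and 3084 in neither. WT fold had a median of 5.62 at genes marked in both, 5.02 in KO alone, 4.97 in DKO alone and 4.26 in neither. A gene can be marked in both by different peaks, and at 85 of the 658 the highest KO and DKO peaks did not overlap.

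Among 40 p53 target genes, WT marked 24, KO 7 and DKO 16, with 5 in both, 2 in KO alone and 11 in DKO alone. Of the 24 marked in WT, 29.2% were marked in KO and 58.3% in DKO, against 8.98% and 59.8% of all WT-marked genes. With the DKO list cut to the KO length of 918 peaks, DKO marked 2 (ranked by fold) or 1 (by -log10 p) of the list, fewer than KO, while over all genes it marked 881 or 853 against 701. The KO-alone genes were Apaf1 and Phlda3. Apaf1, which encodes the scaffold of the apoptosome, had a fold of 6.88 (48 fragments) in WT and 5.07 (20 fragments) in KO and no DKO peak; its neighbour Ikbip shared the peak. Phlda3, a repressor of AKT signalling, had a fold of 4.53 in WT and 4.36 in KO and no DKO peak, and its KO peak of 860 bases was among the 5 longest of its class.

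Mdm2, the ubiquitin ligase that holds p53 in check, was marked in both knockouts by different peaks. The KO peak, chr10:117709109-117709843, began 915 bases inside the gene, had a fold of 5.08 and 33 fragments, and overlapped a WT peak with a fold of 3.56 and 30 fragments. The DKO peak, chr10:117711171-117711415, lay 413 bases before the start site and had a fold of 4.22 and 26 fragments. Mdm2 is known to have a second promoter in its first intron that p53 activates. Exons and introns were not annotated here. The KO pileup was above that of the WT peak it overlapped, although KO was the shallower library. No DKO peak overlapped the KO peak, so no DKO pileup is known at that position.

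The other p53 target genes marked in both knockouts had folds that differed by less than 1.5 times between them. Sesn2, a stress-induced inhibitor of mTORC1 signalling, had 7.08 in WT, 4.27 in KO and 5.57 in DKO, Ccng1, cyclin G, had 5.62, 3.73 and 3.50, and Gtse1, a p53 regulator, had 5.60, 3.81 and 4.26. Polk, a translesion polymerase, had 5.24, 4.02 and 4.47, and its KO and DKO peaks did not overlap. The 11 called in DKO alone included Aen, an apoptosis nuclease (6.03 in WT, 5.08 in DKO), Xpc, a DNA damage sensor of excision repair (6.92 and 4.41), Bax, a pore-forming apoptosis effector (4.30 and 4.30), Gadd45a, a growth arrest gene (5.79 and 4.25), and Ddb2, another damage sensor (4.56 and 3.75). The others were Ei24, Pidd1, Fbxw7 and Bid, also marked in WT, and Tigar and Sfn, which had no WT peak. Zmat3, Btg2, Ppm1d and 5 more were marked in WT and in neither knockout.

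Lists of growth genes had larger shares marked in KO than WT-marked genes as a whole. Of WT-marked ribosomal protein genes, 24 of 67 were marked in KO (35.8%) and 60 in DKO (89.6%). None of the list was marked in KO alone, a call that was rare at 0.515% of all WT-marked genes. The shares in KO and DKO were 34.9% and 90.7% of 43 translation factor genes, 39.1% and 91.3% of 23 chaperone and chaperonin genes, 38.6% and 81.8% of 44 splicing and RNA-binding protein genes and 36.4% and 81.8% of 33 proteasome subunit genes. Cell cycle and replication genes had 26.8% and 80.5% of 41, and oxidative phosphorylation genes 20.8% and 77.4% of 53. The median WT fold was 4.36 in the ribosomal protein list, 5.16 in the translation list, 4.69 in the chaperone list, 4.61 in the splicing list and 5.71 in the proteasome list, against 4.72 over all WT-marked genes. With the DKO list cut to the KO length by fold, the DKO count was below that of KO in 6 of these 7 lists, for example 18 against 24 ribosomal protein genes, 9 against 17 splicing genes and 5 against 9 chaperone genes, and above it for cell cycle and replication genes (12 against 11). Cut by -log10 p, oxidative phosphorylation genes too had 12 in DKO against 11 in KO. Rps26, a small ribosomal subunit protein, had a fold of 5.72 (WT), 6.94 (KO) and 5.06 (DKO). Rps7, in contrast, had 4.55 in WT and 6.62 in DKO and no KO peak. Eif4a1, Psmc1, Cyc1 and Srsf5 were the single members marked in KO alone of the translation, proteasome, oxidative phosphorylation and splicing lists. Over all protein-coding genes 0.196% were marked in KO alone. Eif4a1 had no WT peak and shared its KO peak with Senp3.

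**Figure D4:**
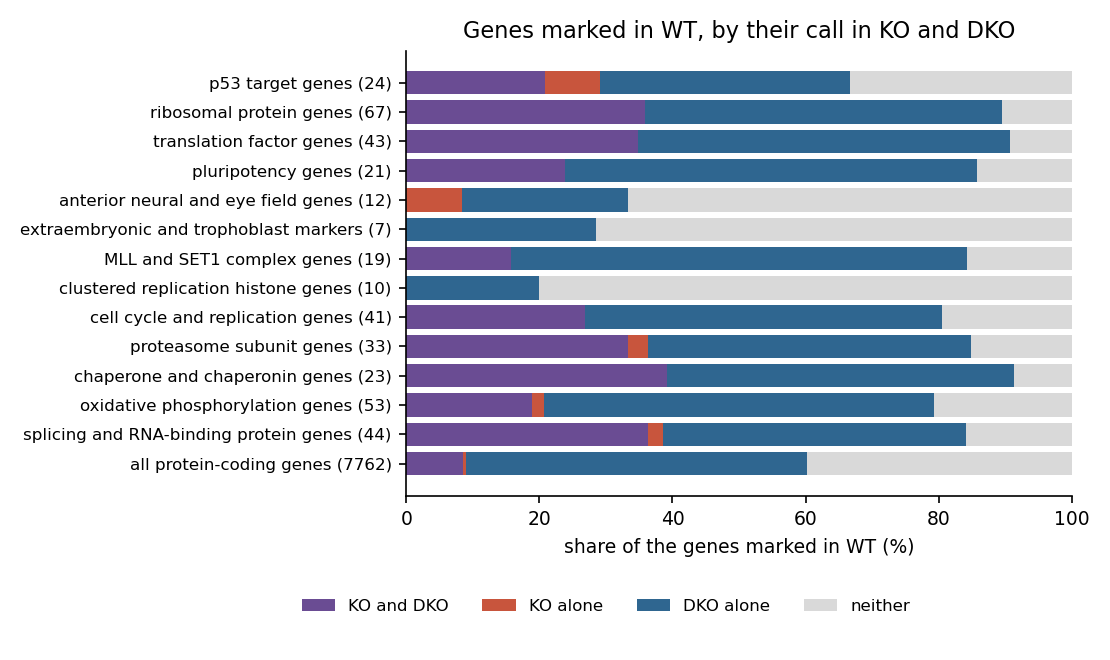
Share of the genes marked in WT (%; their number in brackets) that were marked in both knockouts, in KO alone, in DKO alone or in neither, for the gene lists with at least 5 genes marked in WT and for all protein-coding genes. Ribosomal protein, translation factor, chaperone, splicing and proteasome genes had 34.9% to 39.1% marked in KO, against 8.98% of all WT-marked genes.

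Pluripotency genes were marked in KO at 5 members, all of them also marked in DKO, as were 93.9% of all genes marked in KO. Of the 21 members marked in WT, 23.8% were marked in KO and 85.7% in DKO, against 8.98% and 59.8% of all WT-marked genes. DKO alone marked 13 of the 21, beside 51.3% of all WT-marked genes. Pou5f1, the core pluripotency factor OCT4, had folds of 4.85 (WT), 4.64 (KO) and 4.93 (DKO), but its peak was 2161 bases long in WT, 1026 in KO and 2211 in DKO. Sox2, its partner factor, had 3.69, 3.54 and 2.91, and Tet1, a dioxygenase that oxidises methylated DNA, had 5.48, 4.87 and 3.54. Utf1 (4.18, 4.05 and 4.13) and Pou3f1 (3.92, 4.80 and 3.85) completed the set. DKO alone marked 14, among them Dnmt3b, a DNA methyltransferase (5.24 in WT, 5.43 in DKO), Tet2 (5.35 and 5.38), Lin28a, an RNA-binding protein (4.68 and 4.86), and Nanog, which had no WT peak and a fold of 4.28 in DKO. Klf4, Tfcp2l1 and Fgf4 were marked in WT alone. At equal list length DKO marked 3 pluripotency genes against 5 in KO.

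In the anterior neural list, Zic2, a zinc finger factor of the early neural plate, was marked in KO and not in DKO. It had a fold of 3.32 and 40 fragments in WT and 6.01 and 33 fragments in KO. Otx2, a forebrain factor (3.97 in WT, 3.08 in DKO), and Tcf7l1, a WNT pathway repressor (4.75 and 4.03), were among those marked in DKO and not in KO. Of the 12 members marked in WT, 8 were marked in neither knockout, among them Six6, Otx1 and Sox11, while 39.7% of all WT-marked genes were in neither. KO marked 8.33% and DKO 25% of the 12, against 8.98% and 59.8% of all WT-marked genes. At equal list length DKO marked 0 of the list against 1 in KO.

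Genes of the MLL and SET1 complexes themselves carried a peak at 19 of 24 members in WT, 3 in KO and 17 in DKO. Of the 19, 15.8% were marked in KO and 84.2% in DKO, against 8.98% and 59.8% of all WT-marked genes, and at equal list length DKO marked 4 against 3 in KO. Wdr5 had a fold of 8.07 (73 fragments) in WT, 4.66 (21) in KO and 6.85 (53) in DKO. Hcfc1, a co-factor of SET1 complexes, had 4.93, 5.31 and 4.61, and Ogt, which glycosylates it, had 6.26, 4.11 and 5.87. The 14 marked in DKO alone included core subunit genes Ash2l (3.20 in WT, 5.25 in DKO) and Rbbp5 (5.76 and 5.08) and the methyltransferase genes Kmt2a, Kmt2b, Kmt2c, Setd1a and Setd1b. Ash2l lies on chromosome 8, which is described below.

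Clustered replication histone genes, which are transcribed in S phase, were the list in which DKO marked more members than WT. WT marked 10 of the 47 genes, KO none and DKO 13, and 11 of the 13 had no WT peak. The DKO share of 27.7% stood beside 22.8% of all protein-coding genes, and the DKO count was 6 at a -log10 q of at least 5 and 0 at a fold of at least 4, in the top 50% by fold and at equal list length. Neighbouring histone genes share peaks, and the 13 rested on 9 DKO peaks. Their folds were low: H2bc18 and H3c13 shared a peak of 3.85, H3c3 had 3.74 and H2ac18 had 3.73, and H4c8, marked in WT at 4.72, had 3.01 in DKO. The first 3 of these folds lie above 3.62, the lowest that KO could call at its floor. Where local background was higher, KO called folds down to 1.76, so this level does not tell which of these peaks KO could have called.

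The genes with the highest DKO peaks and no KO peak were also high in WT. Trmt10c, a subunit of mitochondrial ribonuclease P, had a fold of 8.06 in DKO and 5.95 in WT. Timm22, of the inner mitochondrial membrane import machinery, had 7.18 and 6.82, Mms22l, a replication fork repair factor, had 6.94 and 6.99, and Lsm5, an RNA decay and splicing protein, had 6.83 and 10.5. Lmnb2, a nuclear lamin, had 6.86 and 6.52. Babam1 (8.69 and 11.1) and Ing2 (7.99 and 6.93) lie on chromosome 8. The highest DKO peak without KO, inside Chl1 at chr6:103649060-103649291, had a fold of 34.4 and 1175 fragments in DKO and 33.6 in WT, and with 232 bases it was shorter than any KO peak. The Chl1 peak also lay on a WT P53 region and on WDR5 regions of WT and of DKO, where Wdr5 is deleted by label. The Ing2 peak lay on WDR5 regions of WT and DKO as well.

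Of the 43 genes marked in KO alone, 40 were marked in WT. The KO-alone peaks at gene ends with the highest folds were those of Ergic2, a secretory pathway protein (6.04 in KO, 4.29 in WT), Zic2, Rev1, a translesion polymerase (5.95 and 5.91), and Srsf5, a splicing factor (5.84 and 4.27). Fam149b (5.45 and 5.24) and Papola, the poly(A) polymerase (5.42 and 5.75), came next. Ergic2, Fam149b and Papola had a further peak in DKO that did not overlap the KO peak. Pileups were small, from 15 to 33 fragments over the 43 genes, where the lowest of any KO peak was 14.

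DKO marked 360 genes that neither WT nor KO marked, 2.55% of the 14125 genes not marked in WT. The highest were Rex2 in the zinc finger gene cluster of chromosome 4, with a fold of 6.34, Nmb, a neuropeptide gene (5.69), Gm20385 (5.60), and Surf1 and Surf2, which share a divergent promoter (5.48). Of the 1395 DKO peaks without a WT or KO peak, a few 1 Mb bins held a small part. Those with the most were chromosome 8 at 20 Mb with 18, the Zfp978 to Zfp534 cluster of chromosome 4 at 147 Mb with 14 and chromosome 8 at 84 Mb with 13. The histone cluster of chromosome 13 at 23 Mb had 9.

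Chromosome 8 stood apart in both knockouts. The median local background of its gene-end peaks was 1.31 times that of the other chromosomes in KO and 1.39 times in DKO, against 1.13 in WT. Over the other 18 autosomes the ratio ran from 0.871 to 1.04 in KO, from 0.949 to 1.04 in DKO and from 0.954 to 1.06 in WT. WT peaks of chromosome 8 were called in KO in 11.5% and in DKO in 57.2%, against 5.76% to 10.1% and 45.2% to 52.7% over the other autosomes. Of the 1395 DKO peaks with no KO or WT peak, 155 lay on chromosome 8 (11.1%), against 2.44% to 8.17% on each other autosome. Copy number was not measured, and the part of this background in the calls was not tested, but without chromosome 8 the shares of KO and DKO peaks that overlapped each other were 75.5% and 10.7%. On chromosome X, 6.52% of WT peaks were called in KO and 23.9% in DKO.

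**Figure D5:**
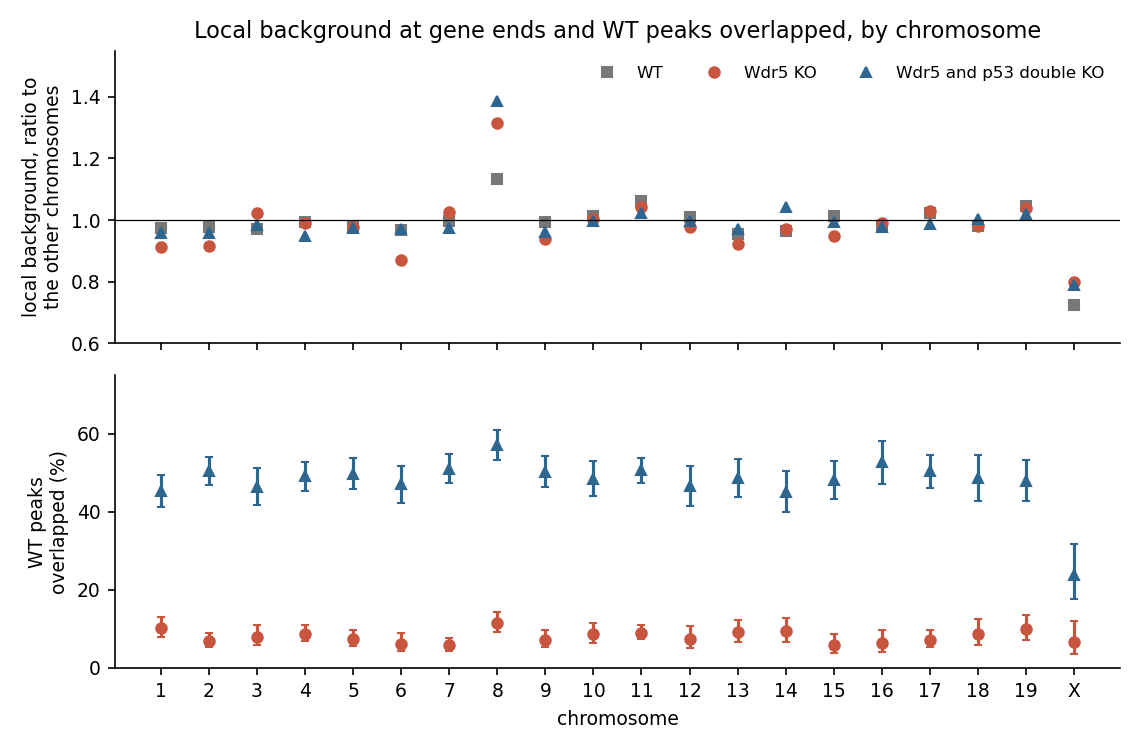
Top, median local background of H3K4me3 peaks at gene ends on each chromosome as a ratio to the other chromosomes, in WT, KO and DKO; bottom, share of WT peaks (%) overlapped in KO and DKO with Wilson 95% intervals for counting error. Chromosome 8 has the highest ratio in each library, 1.31 in KO and 1.39 in DKO.

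Position relative to start sites also differed between classes. A summit lay within 2 kb of a start site in 460 of 694 KO peaks called in both (66.3%), 67 of 224 without DKO (29.9%) and 4071 of 5720 DKO peaks without KO (71.2%). Of these, 92.4%, 91.0% and 79.5% lay downstream of the site. The median summit lay 343.5, 345 and 383 bases downstream, in the same order. Start sites on chromosome 18 were not in the table used here, so its 26 KO and 171 DKO peaks count as away from one and the window shares leave that chromosome out.

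The sequence of the start-site windows was similar between the classes in base content and differed for some motifs. The median number of CpG dinucleotides in 300 bases was 25 at the 650 windows near peaks of both knockouts, 27.5 at the 44 near a KO peak alone, 23 at the 4403 near a DKO peak alone, 22 at the 3093 near a WT peak alone and 5 at the 13073 with no peak. GGGCGG, the GC box, was found in 69.5%, 79.5%, 70.0%, 70.9% and 31.1% of these in the same order. ATGGCGG, known as a YY1 motif, was found in 17.1% of windows marked in both, 4 of 44 in KO alone (9.09%), 11.1% in DKO alone and 7.02% in WT alone, against 5.25% of all windows. A p53 half-site match was found in 6.00% of windows marked in both, in 2 of 44 marked in KO alone and in 5.70% marked in DKO alone, against 7.37% of all. All motifs were searched on both strands, and windows of a gene or of divergent genes can overlap.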

How the data were processed

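H3K4me3 peak lists of 1 KO, 1 DKO and 1 WT library were compared, with the WDR5 and P53 lists of WT and DKO as places to look up. Peaks were called by the authors with MACS2 from paired-end fragments and no control library (q below 0.01, background over 10 kb, no more than 2 duplicates kept), per the file headers. Across the lists of the series the headers name MACS2 versions 2.1.0.20150731 and 2.1.2. Besides, the submitters' processing notes name Bowtie2, SAMtools 1.5, bedtools, HOMER 4.10 and build mm10. The deposited pileup is a coverage signal in fragments at the summit, not scaled to depth. The -log10 p and -log10 q values and the fold enrichment, a ratio within the same library, are the authors' own per peak, and were used to describe, rank or filter peaks. Values of different libraries set side by side are not scaled to each other. Without a control or spike-in, list length moves with depth and background.

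Mitochondrial peaks were left out. Local background was recovered from pileup and fold. Genes were the 21887 protein-coding spans of the RefSeq table of GRCm38.p6, which has no strand, so a marked gene had a peak within 1 kb of either end, and its highest peak is given. Start sites and sequences came from the RefSeq promoter table, which held 17492 of these genes. A WDR5 or P53 region had to overlap a peak in both lists of its group. All 619 entries of 15 gene lists matched. Members and lists were chosen with earlier results of these data known. Named genes were the 10 highest by fold and 5 longest peaks of a class, marked members of the p53, pluripotency, anterior neural and MLL and SET1 lists, and up to 4 of each other list; others are said to be chosen later, and some members are not reported here. Peak sequences were not used here. Shares have Wilson 95% intervals. Overlap and distance code was tested on simulated data. Python 3.11.15, pandas 2.3.3 and scipy 1.17.1 were used. Alternatives were other overlap rules, stricter or equal-length lists and other windows.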

Additional observations from a re-analysis of the deposited data

How the results depend on the processing

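No paired analysis was possible because each genotype had 1 H3K4me3 library. DKO marked more members than KO in 13 of the 15 gene lists and as many in 2, and none had more in KO in the 5 other settings in which lists were recounted; at equal list length KO had more in 8 lists (ranked by p) and 9 (by fold). Of 210 recomputed list counts, 126 stayed within 1.5 times. In the following, values are given in the order both, KO without DKO and DKO without KO unless named, and values not given stayed within the counting interval of the main value or, for counts, within 1.5 times.

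An overlap of 50% of the shorter peak gave 72.5% of KO peaks in DKO, 70.1% of DKO-alone peaks on WT, a WT fold of 4.89 for DKO alone and 38.1% of KO-alone peaks at a gene end. Within 500 bases, 78.6% of KO and 12.4% of DKO peaks were shared, 82.5% of DKO-alone peaks lay on WT, WT folds were 5.43 (both) and 4.72 (DKO alone), and 24.0% of KO-alone peaks lay at a gene end. A gene window of 5 kb gave 82.7%, 41.1% and 86.4% at a gene end. Peaks over the end itself were 7.93%, 1.79% and 7.71%, with 70 genes in KO, 619 in DKO, 49 in both, 21 in KO alone and 570 in DKO alone.

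The top 50% of each list by fold gave classes of 311, 148 and 2898, shared shares of 67.8% (KO) and 9.69% (DKO), 99.4% (both) and 87.8% (DKO alone) on WT, WT folds of 6.12 (both), 5.16 (DKO alone) and 4.17 (neither), 78.2% of DKO-alone peaks at a gene end, and 318 genes in KO, 2958 in DKO, 280 in both and 2678 in DKO alone. A -log10 q of at least 5 gave 460 shared KO peaks and 3785 DKO-alone peaks, 99.3% and 84.4% of these on WT, WT folds of 5.71, 5.01 (DKO alone) and 4.13 (neither), 76.5% of DKO-alone peaks at a gene end, and 454 genes in KO and 411 in both. A fold of at least 4, chosen after seeing the data, gave 459 shared and 2383 DKO-alone peaks, shared shares of 60.6% and 16.1%, 99.3%, 66.8% and 87.7% on WT, WT folds of 5.92, 5.19 (DKO alone) and 4.17 (neither), 45.0% of KO-alone and 78.0% of DKO-alone peaks at a gene end, and 2647 genes in DKO, 136 in KO alone and 2191 in DKO alone.

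With the DKO list cut to 918 peaks by -log10 p, classes were 371, 547 and 554, shared shares 40.4% (KO) and 39.7% (DKO), shares on WT 99.7%, 79.3% and 95.8%, WT folds 5.96, 5.01 and 5.48 with 4.31 for neither, shares at a gene end 57.0% (KO alone) and 76.0% (DKO alone), and genes 853 in DKO, 336 in both, 365 in KO alone and 517 in DKO alone. Cut by fold, classes were 285, 633 and 636, shared shares 31.0% and 30.7%, shares on WT 99.6%, 82.1% and 94.97%, WT folds 6.30, 4.96 and 5.65 with 4.29 for neither, shares at a gene end 58.9% and 80.3%, and genes 881 in DKO, 254 in both, 447 in KO alone and 627 in DKO alone. In these 2 settings fewer DKO peaks were kept by construction. Leaving out chromosome 8, also chosen after seeing the data, kept each of its 11 recomputed values within these limits.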
